A study of Mus musculus with 8 samples.

Results

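MyoD is the bHLH factor that turns cells into skeletal muscle, and NeuroD2 the bHLH factor that turns them into neurons. Both raised 44 genes in mouse P19 cells, to levels about 2-fold apart or less, of 37558 genes in the deposited count table. These shared genes were chosen on the measured values of 3 libraries. Counts were divided by the library total and expressed as CPM, the share of the total times 1000000, and a gene was a member when log2(CPM + 0.5) was at least 2 above GFP, with at least 5 CPM, in both the MyoD and the NeuroD2 library, and when those 2 libraries lay under 1 apart on that scale. P19 is an embryonal carcinoma line that can form muscle or neurons in culture. The cells were infected with lentivirus in the presence of polybrene and later moved to Neurobasal medium with B27 supplement, so all 8 cultures, the GFP control included, were kept under conditions made for neurons. The viruses carried GFP, MyoD (MD in the labels), NeuroD2 (ND2), a chimera that is MyoD with the bHLH domain of NeuroD2 in place of its own, written MD(ND2bHLH), or 2 mutants of that chimera named WC and WCS, whose changes the labels do not spell out. The chimera and WCS were each also given at a multiplicity of infection (MOI) of 100, and the MOI of the other 6 cultures is not stated. Each of the 8 groups was 1 library, so the values below have no replicate error. Intervals are exact binomial (Clopper-Pearson) 95% intervals on the counts of 2 libraries and cover counting error only.

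bHLH factors bind DNA as dimers with E-proteins at short sites called E-boxes, and the middle bases of the E-box differ between the sites that MyoD and NeuroD factors prefer. A muscle fibre and a neuron look unlike each other, yet both leave the cell cycle, carry voltage-gated calcium channels and meet at cholinergic synapses. Genes that both factors raise are therefore a place to see what a myogenic and a neurogenic factor have in common, and the chimera and its mutants show how those genes respond when the 2 proteins are combined.

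Library totals ran from 26410500 counts (chimera) to 43984066 (GFP), where 3 counts are worth 0.0682 to 0.114 CPM. Each delivered gene was high where its label says. Counts of Myod1 came to 0.637 CPM in GFP, 278 in MyoD, 0.833 in NeuroD2, 116 in the chimera, 569 in the chimera at MOI 100, 105 in WC, 76.5 in WCS and 930.3 in WCS at MOI 100. Neurod2 stood at 2.34 CPM in GFP, 0 in MyoD, 186 in NeuroD2, 13.9 in the chimera, 75.1 in the chimera at MOI 100, 15.7 in WC, 14.5 in WCS and 141 in WCS at MOI 100, where the 0 in MyoD allows up to 0.108 CPM. Delivered and endogenous reads are counted together. In the chimera and its mutants the delivered Myod1 sequence lacks the MyoD bHLH segment. Pou5f1, which encodes the pluripotency factor Oct4 and marks undifferentiated P19 cells, was at 1148 CPM in GFP and between 31.6 and 550.5 CPM in the other libraries. The summed level of 40 skeletal muscle structure genes was 18250 CPM in MyoD, 2063 in the chimera and 3360 in the chimera at MOI 100, against 243.5 to 797 CPM in the other 5 libraries. The summed level of 40 neuronal structure genes was 595 CPM in MyoD and 800.4 in GFP, and ran from 1414 CPM in the chimera to 9966 CPM in WCS at MOI 100. Rn7s6, a 7S RNA gene, divided the libraries in another way. It was at 0.568 to 1.39 CPM in NeuroD2 and in the chimera and MOI 100 libraries. In GFP, MyoD, WC and WCS it was at 12.7 to 15.2 CPM. The comparisons of NeuroD2 with GFP and with MyoD, used to choose the genes, run along this division. Its part in the choice was not tested. The labels name 2 RNA extraction methods without saying which library had which. In bulk RNA, more cells that express a gene and more RNA per cell cannot be told apart.

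E-boxes in the promoters of the shared genes are shown first, because the E-box is the sequence through which both factors meet a gene. RefSeq promoter windows (GRCm38.p6, 250 bases before to 50 after an annotated start) were found by symbol for 32 of the 44 genes, with 49 windows in all. The E-box spellings searched on both strands were CAGCTG, which both factors bind, CAGATG, favoured by NeuroD factors, and CAGGTG, favoured by MyoD. The 3 cannot stand for one another at the same bases, since their middle pair differs. CAGCTG was present for 9 of the 32 genes (28.1%), CAGATG for 6 (18.8%) and CAGGTG for 11 (34.4%). Over the 9558 tested genes with a window these shares were 17.9%, 13.2% and 20.5%, and over all 27025 genes with RefSeq windows 18.3%, 19.2% and 22.6%. Among MyoD-activated genes (defined below) the shares were 37.6%, 18% and 29.2% of 178 genes. Among NeuroD2-activated genes they were 26.8%, 17.7% and 26% of 339. Genes with more windows have more chances of a match. Per window the shares were 24.5%, 20.4% and 22.4% of 49 for the shared genes and 15.4%, 11.1% and 17.6% of 12333 for tested genes. MyoD-activated genes had 31.8%, 14.2% and 25.9% of 239 windows, and NeuroD2-activated genes 21.9%, 15.4% and 21.1% of 456. A match is a description of the letters in the window, and its use by either factor was not measured here. The 5 windows printed are 1 start each of the 3 shared genes with both CAGCTG and CAGATG in a single window (Zbtb18, Cbfa2t3 and Nsg2), of Gfra1 with CAGCTG alone, and of Ntng2 with CAGATG alone. Gfra1 was lower and Ntng2 higher in WCS than in the chimera. Rap1gap2, which has a window with CAGCTG alone, was also higher in WCS in the fit described below. Commd3 (CAGCTG) and Igfbp4 (CAGATG) were not called for construct in that fit. Whether the spelling goes with the direction was not tested. Capitals mark the E-boxes in either orientation, and each sequence is written 5′ to 3′ on the gene's strand.
Zbtb18 (chr1:177444403-177444702, plus strand): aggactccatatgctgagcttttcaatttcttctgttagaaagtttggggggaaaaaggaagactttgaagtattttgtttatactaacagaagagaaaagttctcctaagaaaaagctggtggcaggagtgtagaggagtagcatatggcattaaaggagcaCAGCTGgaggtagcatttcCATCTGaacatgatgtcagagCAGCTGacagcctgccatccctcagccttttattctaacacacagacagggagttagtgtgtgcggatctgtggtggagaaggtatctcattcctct
Cbfa2t3 (chr8:122699060-122699359, minus strand): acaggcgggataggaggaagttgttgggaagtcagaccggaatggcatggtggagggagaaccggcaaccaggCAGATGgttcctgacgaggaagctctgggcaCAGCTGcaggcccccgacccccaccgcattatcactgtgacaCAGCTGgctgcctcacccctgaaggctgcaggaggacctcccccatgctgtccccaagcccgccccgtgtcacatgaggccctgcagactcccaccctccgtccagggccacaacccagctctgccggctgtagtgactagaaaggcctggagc
Nsg2 (chr11:32000169-32000468, plus strand): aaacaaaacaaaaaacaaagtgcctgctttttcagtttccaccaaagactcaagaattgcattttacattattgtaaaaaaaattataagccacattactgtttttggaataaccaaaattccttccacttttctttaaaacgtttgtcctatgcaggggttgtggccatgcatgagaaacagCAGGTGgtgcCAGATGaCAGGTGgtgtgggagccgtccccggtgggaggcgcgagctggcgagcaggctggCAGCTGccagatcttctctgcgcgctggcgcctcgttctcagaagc
Gfra1 (chr19:58455349-58455648, minus strand): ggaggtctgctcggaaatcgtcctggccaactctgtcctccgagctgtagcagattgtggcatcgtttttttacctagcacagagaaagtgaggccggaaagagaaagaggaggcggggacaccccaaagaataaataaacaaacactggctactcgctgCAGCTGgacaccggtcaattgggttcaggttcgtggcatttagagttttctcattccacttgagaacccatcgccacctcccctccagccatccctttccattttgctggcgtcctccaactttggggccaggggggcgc
Ntng2 (chr2:29248050-29248349, minus strand): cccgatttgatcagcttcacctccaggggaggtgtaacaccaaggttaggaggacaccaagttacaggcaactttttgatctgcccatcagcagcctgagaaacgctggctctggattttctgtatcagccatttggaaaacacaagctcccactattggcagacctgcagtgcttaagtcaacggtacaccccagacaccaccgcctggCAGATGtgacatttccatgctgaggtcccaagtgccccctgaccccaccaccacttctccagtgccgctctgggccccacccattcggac
In the Zbtb18 window the CAGCTG sites began 87 and 47 bases before the start with CAGATG between them, 68 bases before it. Nsg2 held all 3 spellings between 67 bases before and 4 bases after its start. No E-box of these 3 spellings lies in the windows of Ache, Cacna2d1, Reln, Smtnl2 or Foxl2.

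The values that chose the genes are given as a description. At least 4-fold above GFP with 5 CPM were 422 of the 12827 genes with 5 CPM in at least 1 library in MyoD (3.29%) and 758 in NeuroD2 (5.91%). Both lists held 72 genes, of which the 44 members lay under 2-fold apart and 28 lay further apart. Over GFP the members had a median log2 difference of 2.61 in MyoD and 2.84 in NeuroD2, while 18 were higher in MyoD and 26 higher in NeuroD2. GFP was the lowest of the 8 libraries for 43 of the 44, and 11 were under 1 CPM in GFP. The thresholds cut through a continuum. Phldb2 (2.005) and Bmi1 (2.011) were just inside the limit for MyoD over GFP, and Limch1 (1.988) just outside it. Ntng2 (2.0) and Rb1 (2.001) were just inside the limit for NeuroD2 over GFP, and Rftn2 (1.995) and Slc12a5 (1.983) just outside. Rbfox1 (5.04 CPM) and Ripply3 (5.29 CPM) just met the minimum level in NeuroD2, which Slc9a9 (4.999 CPM) and Rrad (4.67 CPM) missed. Slc24a3 (0.999) and Cacna1d (0.96) were just close enough between the 2 factors, and Igfbp5 (1.05) and Cacna1h (1.06) just too far apart. Of the members 42 are protein-coding, and the other 2 are the non-coding RNAs Airn and Gm16277.

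**Figure D1:**
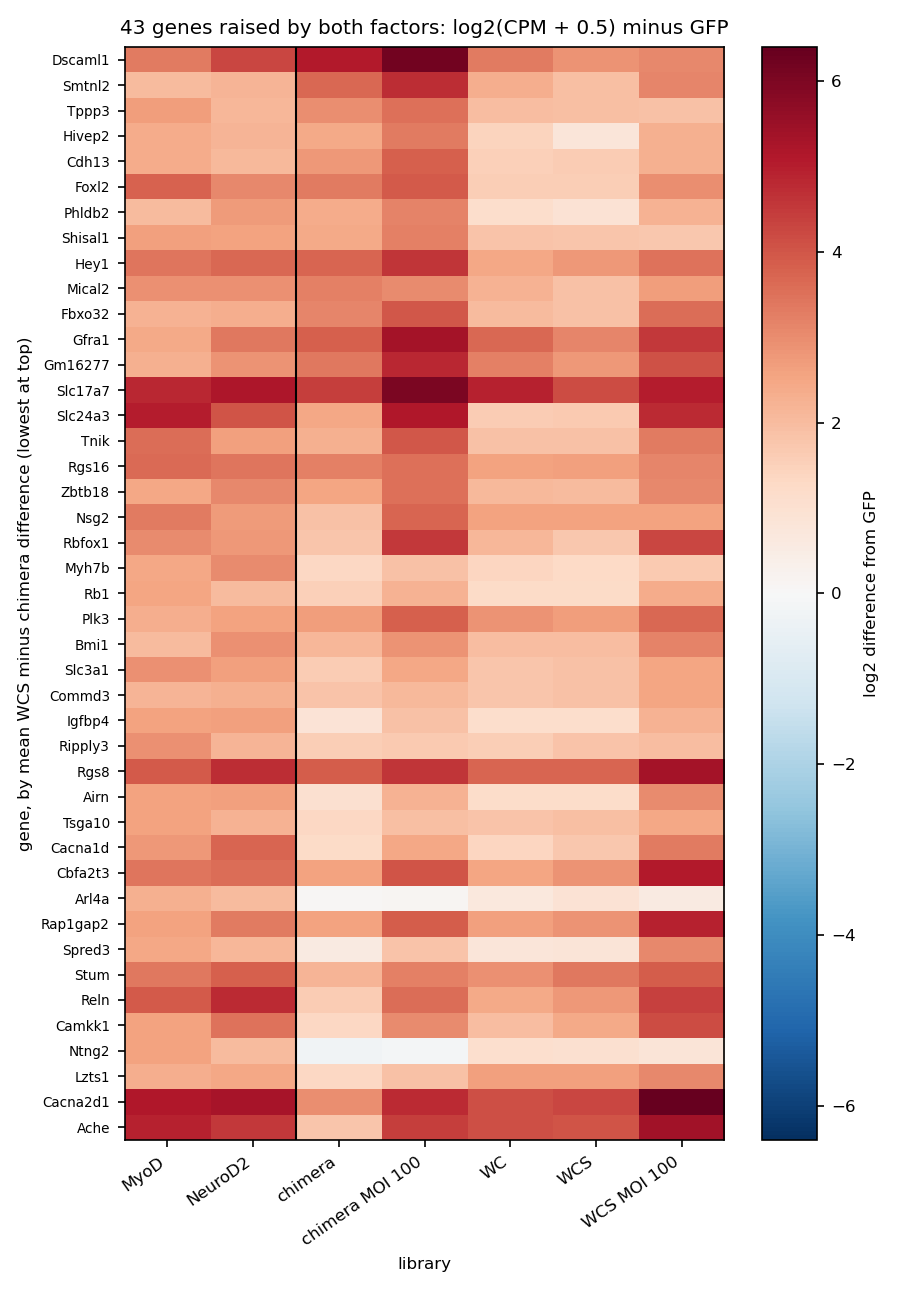
Colour gives log2(CPM + 0.5) in each library minus GFP for 43 of the 44 shared genes (rows), with 1 library per column and the 2 libraries that chose the genes left of the black line. Rows run from the lowest WCS minus chimera difference (Dscaml1, top) to the highest (Ache, bottom); Ntng2 and Arl4a are near 0 in both chimera libraries.

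Most of the shared genes were also above GFP when MyoD carried the NeuroD2 bHLH domain. Here and below, 4-fold and 2-fold counts need a difference of 2 or 1 in log2(CPM + 0.5) and at least 5 CPM in the higher library, so a gene at low level can have a larger CPM ratio and not be counted. In the chimera 25 of 44 members were at least 4-fold above GFP by this measure (2.81% of all 12827 genes were), in the chimera at MOI 100 36 (7.13% of all genes), in WC 21 (3.38%), in WCS 18 (3.27%) and in WCS at MOI 100 38 (7.99%). The number 4-fold below GFP was 0 in each of the 5 (0.748%, 2.67%, 0.546%, 0.936% and 2.78% of all genes). The median differences from GFP were 2.4, 3.52, 2.0, 1.91 and 3.11 on the log2 scale, against medians over all genes of 0.14, 0.17, 0.11, 0.10 and 0.21. These 5 comparisons share the GFP library with the choice of the genes, which picked genes low in GFP. The excess over all genes is therefore in part built in and is not tested. Both chimera libraries and WCS at MOI 100 against GFP run along the Rn7s6 division, whereas WC and WCS against GFP do not. With TMM scaling, which takes the medians of all genes to between 0 and 0.04, the members' medians were 2.30, 3.39, 1.94, 1.83 and 2.92. The members 4-fold above GFP in all 5 libraries numbered 12, and no such count was made over all genes. Among them were Cacna2d1, Cbfa2t3, Gfra1, Gm16277, Hey1, Plk3, Rap1gap2, Rgs16, Rgs8, Slc17a7 and Zbtb18. At the other end, Arl4a, Myh7b, Ntng2 and Ripply3 met this measure in 0 of the 5; Ripply3 and Myh7b were under 5 CPM in all 5, and the plain CPM ratio of Ripply3 to GFP was 4.21 to 5.9.

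Genes raised far more by 1 factor than by the other show the frame in which these values lie. They were at least 4-fold above both GFP and the other factor's library, chosen by the same kind of rule. There were 264 such genes for MyoD and 519 for NeuroD2, called MyoD-activated and NeuroD2-activated. Of these, 7 and 5 were also 4-fold above GFP in the other factor's library. In the chimera 28.0% of the MyoD-activated and 28.9% of the NeuroD2-activated genes were 4-fold above GFP, against 56.8% of the shared genes. In WC the shares were 3.79%, 53.9% and 47.7% in the same order, and in WCS 3.41%, 53.0% and 40.9%. At MOI 100 they were 38.6%, 67.4% and 81.8% in the chimera and 5.68%, 84.6% and 86.4% in WCS. In the mutants the shared genes thus stood near the NeuroD2-activated genes and far from the MyoD-activated genes, with no test made between the sets. The shared and NeuroD2-activated genes were both chosen as 4-fold above GFP in NeuroD2, and the MyoD-activated genes as 4-fold lower in NeuroD2 than in MyoD. For a library that resembles NeuroD2 this grouping is in part built in.

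**Figure D2:**
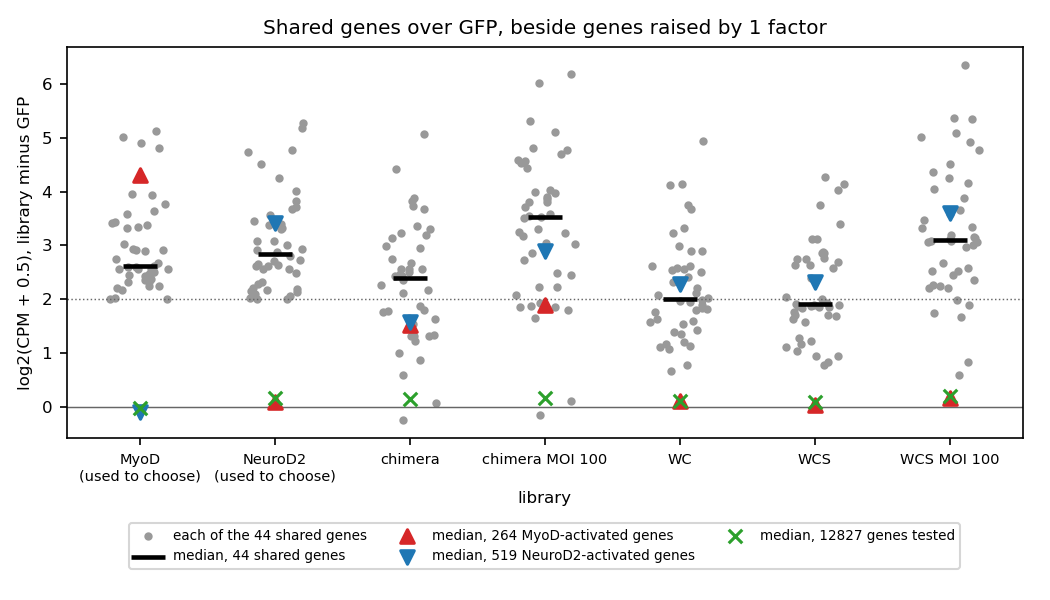
The vertical axis is log2(CPM + 0.5) minus GFP for 7 libraries (1 each); grey points are the 44 shared genes, the black bar their median, triangles and crosses the medians of the other sets, and the dotted line the 4-fold limit. The medians of the MyoD-activated genes are 0.03 to 0.16 in the 3 mutant libraries, whereas those of the shared genes are 1.91 to 3.11.

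The chimera and its mutants were then set against each other, in libraries that took no part in choosing the genes. The shared genes did not move together: 22 were lower and 22 higher in WC, 23 lower and 21 higher in WCS, and 22 each way in WCS at MOI 100. In WC over the chimera 9 of 44 were at least 2-fold lower (2.05% of all genes) and 4 at least 2-fold higher (3.07%), with a median difference of -0.01. In WCS over the chimera 9 were 2-fold lower (2.64%) and 7 higher (3.45%), with a median of -0.05. At MOI 100, 9 were 2-fold lower in WCS than in the chimera (3.63%) and 6 higher (4.55%), with a median of -0.03. The medians over all genes were -0.01, -0.02 and 0.04. MyoD-activated genes had medians of -1.26, -1.43 and -1.68 in these 3 comparisons, and NeuroD2-activated genes 0.73, 0.79 and 0.78. WC and WCS themselves differed by 2-fold at 0 of the 44 genes, and by 2-fold in either direction at 16 (0.125%) and 2 (0.0156%) of all genes.

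The direction of each gene was much the same at both MOI labels. Of the 44 genes 20 were lower in WCS in both pairs of libraries, 19 higher in both and 5 of opposite sign. Signs were not counted over all genes. Across the 44 genes the 2 differences correlated at r = 0.81 (Spearman's rho 0.82), against r = 0.77 over all 12827 genes. The pairs share no library, but they share the constructs and the genes are not independent. The crossed design of these 4 libraries was tested with edgeR's quasi-likelihood fit on construct and MOI label, with Benjamini-Hochberg adjustment over 16079 genes. In WCS 14 of the 44 fell (5.49% of all genes fell) and 7 rose (5.84% rose). The 14 were Cdh13, Dscaml1, Foxl2, Gfra1, Gm16277, Hey1, Hivep2, Phldb2, Rgs16, Shisal1, Smtnl2, Tnik, Tppp3 and Zbtb18. The 7 were Ache, Cacna2d1, Camkk1, Lzts1, Ntng2, Rap1gap2 and Reln. The fit has 1 residual degree of freedom, and its p-values compare the construct difference between 2 MOI labels and say nothing of variation among cultures. Without the MOI term, 0 members were called in either direction; with any 1 of the 4 libraries left out as well, 0 rose and at most 1 fell (Dscaml1, without the unlabelled chimera). Myod1 reads were lower in WCS than in the chimera without the MOI label (76.5 against 116 CPM) and higher at MOI 100 (930.3 against 569 CPM). Neurod2 reads were near-equal in WCS and the chimera without the label (14.5 against 13.9 CPM) and higher in WCS at MOI 100 (141 against 75.1 CPM). The delivered level may thus differ between the constructs, and its part in the construct calls was not tested. WC and WCS against the chimera run along the Rn7s6 division of the libraries, whereas WCS at MOI 100 against the chimera at MOI 100 does not (1.39 and 1.25 CPM).

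**Figure D3:**
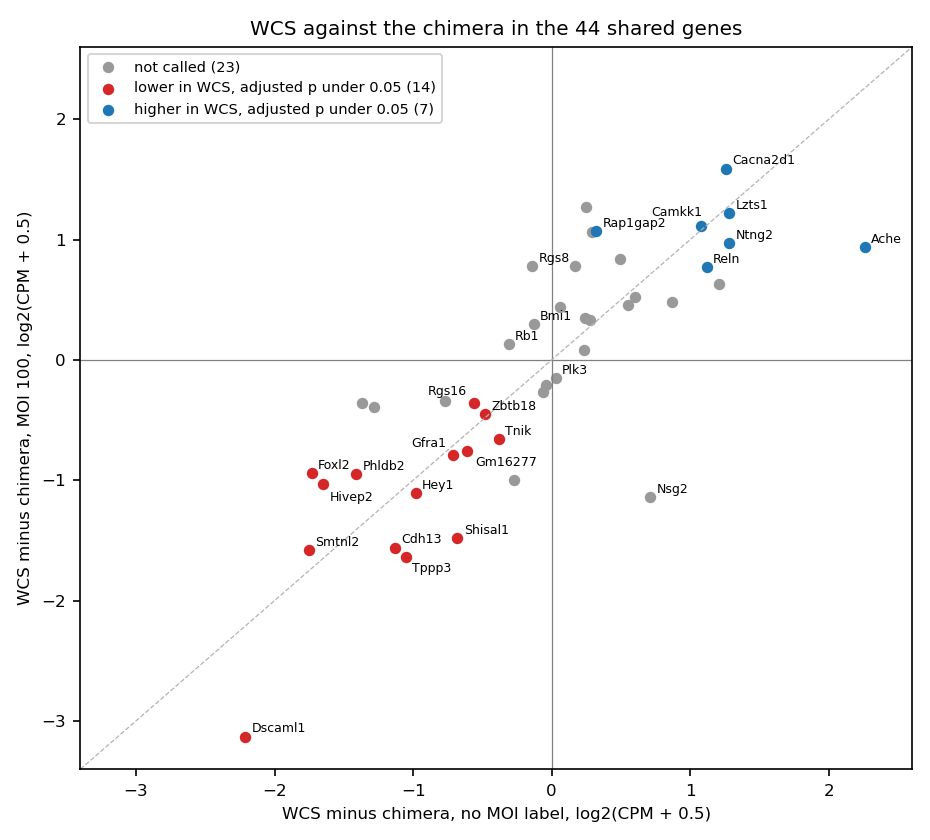
Each point is 1 of the 44 shared genes, with the WCS minus chimera difference in log2(CPM + 0.5) without the MOI label (horizontal) and at MOI 100 (vertical), 1 library per construct and label. Red marks the 14 genes that fell and blue the 7 that rose in edgeR's quasi-likelihood fit; Nsg2 lies at 0.71 and -1.14.

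Most of the shared genes were higher in the libraries labelled MOI 100. Myod1 reads were 4.90-fold and 12.2-fold higher there, in the chimera and WCS, and Neurod2 reads 5.41-fold and 9.73-fold higher. The MOI of the unlabelled libraries is not known. In edgeR's quasi-likelihood fit 29 of the 44 rose at MOI 100 (13.4% of all genes rose) and 0 fell (12.2% fell). At an unadjusted p under 0.05 in that fit, 34 members were higher and 0 lower, beside 6374 of 16079 genes in either direction. The count of falls was also 0 in the DESeq2 Wald test. Without the construct term, and with any 1 of the 4 libraries left out as well, 0 members were called as higher. The median difference was 1.0 in the chimera and 1.11 in WCS, against 0.05 and 0.11 over all genes. At least 2-fold higher were 22 members in the chimera (6.42% of all genes) and 24 in WCS (7.79%), and 0 were 2-fold lower in either (2.42% and 3.46%). Both differences were 2-fold for 16 members, with no such count made over all genes. WCS and WCS at MOI 100 lie on opposite sides of the Rn7s6 division (14.3 and 1.39 CPM), whereas the 2 chimera libraries do not (0.568 and 1.25 CPM). NeuroD2-activated genes had medians of 1.31 and 1.35 and MyoD-activated genes 0.43 and 0.09 in the same comparisons. The largest mean rises were those of Slc24a3, Rbfox1 and Ache, and the smallest differences those of genes such as Arl4a, Ntng2 and Ripply3. Summed pluripotency genes were lower in both MOI 100 libraries (588 against 1195 CPM in the chimera and 679 against 1427 CPM in WCS), and their part in the result was not tested.

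**Figure D4:**
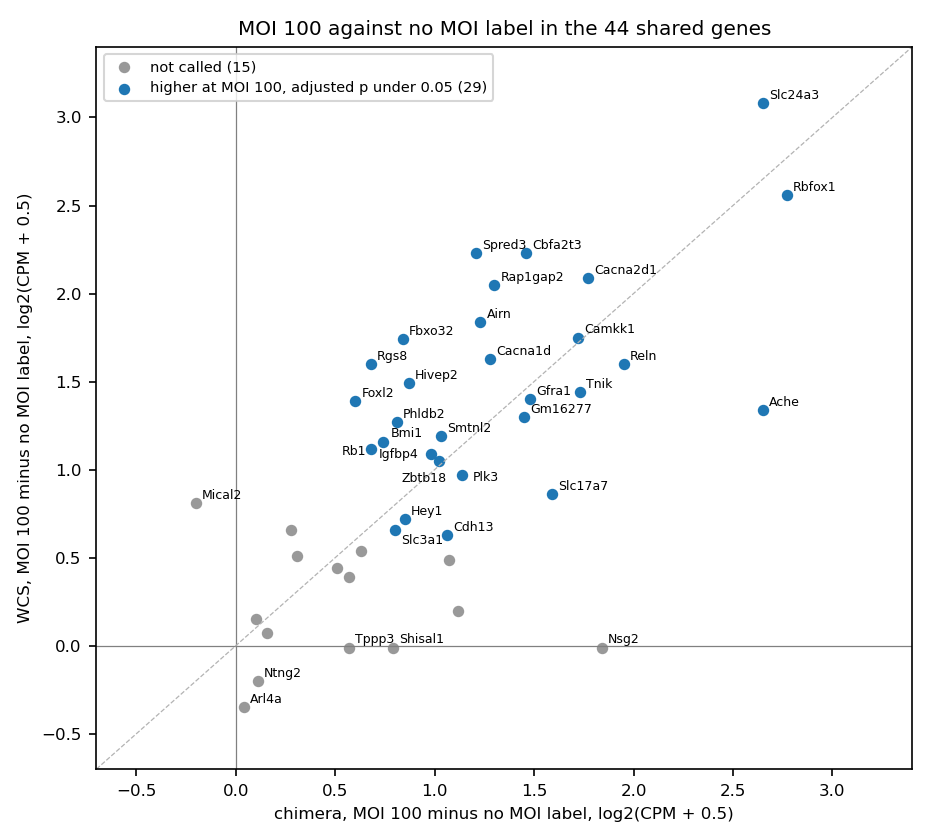
Each point is 1 of the 44 shared genes, with the MOI 100 minus unlabelled difference in log2(CPM + 0.5) in the chimera (horizontal) and in WCS (vertical), 1 library each. Blue marks the 29 genes that rose in edgeR's quasi-likelihood fit; Slc24a3 and Rbfox1 lie furthest out and Nsg2 is high in the chimera alone (1.84 and -0.01).

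Some shared genes stood above both parents in the chimera and mutant libraries. A gene was counted as above both when its level exceeded that of MyoD and NeuroD2 and the counting interval against the higher one excluded a ratio of 1. This held for 9 genes in the chimera, 19 in the chimera at MOI 100, 4 in WC, 2 in WCS and 17 in WCS at MOI 100. Conversely 27, 12, 32, 34 and 8 genes were below both parents in the same order. The MyoD and NeuroD2 levels also chose the genes, so these counts are in part built in. They are a description that was not tested, and no such counts were made over all genes. Plk3 alone was above both in all 5 libraries, and 15 genes were above both in none. The highest of the 8 libraries was the chimera at MOI 100 for 19 genes and WCS at MOI 100 for 12. It was MyoD for 7, NeuroD2 for 5 and the unlabelled chimera for 1, again with no count over all genes.

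By known role, 8 members act in transcription; 4 of them fell and 0 rose in WCS, against 14 and 7 of all 44 members and 5.49% and 5.84% of all genes. Hey1, a bHLH repressor that Notch signalling turns on, stood at 2.82 CPM in GFP, 35 in MyoD, 41.7 in NeuroD2, 43.5 in the chimera, 78.9 in the chimera at MOI 100, 18.3 in WC, 21.8 in WCS and 36.4 in WCS at MOI 100. It was highest in the chimera at MOI 100 and lower in all 3 mutant libraries than in the chimera at the same label, and it fell in WCS (log2 fold change -1.09, adjusted p = 0.0029). Zbtb18, a zinc-finger repressor known in both cortical neurons and muscle, stood at 23 CPM in GFP, 132 in MyoD, 199 in NeuroD2, 134 in the chimera, 272 in the chimera at MOI 100, 99.3 in WC, 95.8 in WCS and 199 in WCS at MOI 100. Its level at least 4-fold above GFP in all 5 libraries went with a fall in WCS of under 2-fold (log2 fold change -0.49, adjusted p = 0.035). Hivep2, a large zinc-finger factor, stood at 4.84 CPM in GFP, 27 in MyoD, 23.2 in NeuroD2, 28.4 in the chimera, 52.4 in the chimera at MOI 100, 13.9 in WC, 8.71 in WCS and 25.3 in WCS at MOI 100. WCS and WC were its lowest libraries after GFP, and it fell in WCS (log2 fold change -1.39, adjusted p = 0.0043). Foxl2, a forkhead factor best known from the ovary, fell as well (log2 fold change -1.40, adjusted p = 0.01), with 21.5 and 32.8 CPM in the chimera libraries against 6.21, 6.12 and 16.9 CPM in WC, WCS and WCS at MOI 100.

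Ripply3, a corepressor that acts with T-box factors, stood at 0.773 CPM in GFP, 9.26 in MyoD, 5.29 in NeuroD2, 3.26 in the chimera, 3.52 in the chimera at MOI 100, 3.28 in WC, 4.07 in WCS and 4.56 in WCS at MOI 100. Its 5 chimera and mutant libraries lay between GFP and both parents. Bmi1, a Polycomb subunit that helps keep genes silent, ran from 7.73 CPM in GFP to 73 CPM in WCS at MOI 100. It rose with MOI (log2 fold change 0.88, adjusted p = 0.0069) and did not pass the test for construct (adjusted p = 0.85). Cbfa2t3, a corepressor of the ETO family, rose with MOI too (log2 fold change 1.86, adjusted p = 0.0033). Its level in WCS at MOI 100 was 2.97-fold (interval 2.6 to 3.39) that in NeuroD2.

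The cell cycle was represented by a pair of genes. Rb1, the retinoblastoma protein that holds cells out of S phase and is needed for muscle differentiation, stood at 12.4 CPM in GFP, 72.9 in MyoD, 51.3 in NeuroD2, 37.2 in the chimera, 59.9 in the chimera at MOI 100, 29.5 in WC, 29.8 in WCS and 65.5 in WCS at MOI 100. It rose with MOI (log2 fold change 0.83, adjusted p = 0.0087), and the construct difference was small and of opposite sign at the 2 labels (-0.31 and 0.13). Exons of Rb1 overlap those of Rcbtb2 (up to 47.3 CPM) and Lpar6 (up to 16.6 CPM) on the opposite strand, and reads there cannot be told apart. Plk3, a stress-responsive polo-like kinase, stood at 9.89 CPM in GFP, 51.3 in MyoD, 60.7 in NeuroD2, 65.6 in the chimera, 146 in the chimera at MOI 100, 76.7 in WC, 66.9 in WCS and 132 in WCS at MOI 100. All 5 chimera and mutant libraries exceeded both MyoD and NeuroD2, and Plk3 rose with MOI (log2 fold change 0.98, adjusted p = 0.0026).

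Signalling genes were the largest group, with 9 members. Gfra1, the receptor that binds the neurotrophic factor GDNF together with Ret, stood at 12.9 CPM in GFP, 72 in MyoD, 139 in NeuroD2, 189 in the chimera, 529 in the chimera at MOI 100, 169.7 in WC, 115 in WCS and 306 in WCS at MOI 100. It was above MyoD in all 5 chimera and mutant libraries, and at MOI 100 it reached 3.81-fold (interval 3.68 to 3.95) the NeuroD2 level in the chimera. Gfra1 rose with MOI (log2 fold change 1.36, adjusted p = 0.0012) and fell in WCS (log2 fold change -0.78, adjusted p = 0.0089). The fall of Gfra1 and of Gm16277 was not kept in the fit that adds WC as a mutant, where WC was 0.15 and 0.12 below the chimera on the log2 scale. Gm16277, a predicted non-coding gene, has exons that overlap Gfra1 on the opposite strand, and its values ran in parallel, from 1.39 CPM in GFP to 52.5 CPM in the chimera at MOI 100. No strand setting is given in the sources used here, and the reads of the pair cannot be told apart.

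Rgs16 and Rgs8 speed the shut-off of G protein signals. Rgs16 stood at 13.5 CPM in GFP, 175 in MyoD, 148 in NeuroD2, 128 in the chimera, 159 in the chimera at MOI 100, 82.6 in WC, 86.7 in WCS and 123 in WCS at MOI 100. MyoD held the most and GFP the least. The MOI difference did not pass the test (adjusted p = 0.074, edgeR), and Rgs16 fell in WCS by under 2-fold (log2 fold change -0.50, adjusted p = 0.033), a call that DESeq2's Wald test did not keep. Rgs8 ran from 1.52 CPM in GFP to 81.6 CPM in WCS at MOI 100 and rose with MOI (log2 fold change 1.07, adjusted p = 0.013). Igfbp4, a secreted protein that binds insulin-like growth factors, stood at 35.1 CPM in GFP, 214 in MyoD, 217 in NeuroD2, 64.8 in the chimera, 129 in the chimera at MOI 100, 76.6 in WC, 76.5 in WCS and 164 in WCS at MOI 100. Both parents exceeded all 5 chimera and mutant libraries, and 4-fold over GFP was reached in WCS at MOI 100 alone.

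Camkk1, a kinase that starts calcium-calmodulin kinase cascades, stood at 1.27 CPM in GFP, 9.98 in MyoD, 19.1 in NeuroD2, 3.94 in the chimera, 14.1 in the chimera at MOI 100, 6.5 in WC, 8.88 in WCS and 31.1 in WCS at MOI 100. It was higher in WCS than in the chimera at both labels (log2 fold change 1.12, adjusted p = 0.012) and rose with MOI. Rap1gap2, which switches off the GTPase Rap1, reached 180.5 CPM in WCS at MOI 100, against 58.1 CPM in NeuroD2. It was called as higher in WCS (log2 fold change 0.68, adjusted p = 0.049), with a difference of 0.32 without the label and 1.07 at MOI 100, but the fit without the filter on low counts and the fit that adds WC as a mutant did not keep the call. Tnik, a kinase of the Wnt and cytoskeletal pathways, went the other way. It stood at 6.84 CPM in GFP, 87.4 in MyoD, 44.8 in NeuroD2, 34.8 in the chimera, 116 in the chimera at MOI 100, 26.7 in WC, 26.7 in WCS and 73.4 in WCS at MOI 100. Tnik rose with MOI (log2 fold change 1.52, adjusted p = 0.0011) and fell in WCS (log2 fold change -0.56, adjusted p = 0.041), a call that DESeq2's Wald test and a fit without the filter on low counts did not keep.

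Spred3, a brake on Ras signalling, was at 1.61 CPM in GFP and reached 17.3 CPM in WCS at MOI 100, above the 11.1 CPM of MyoD and the 8.59 CPM of NeuroD2. Arl4a, a small GTPase, stood at 11.2 CPM in GFP, 55.4 in MyoD, 47.4 in NeuroD2, 11.8 in the chimera, 12.1 in the chimera at MOI 100, 18.1 in WC, 22 in WCS and 17.2 in WCS at MOI 100. In both chimera libraries it was within 0.11 of GFP on the log2 scale, while the mutants lay between GFP and the parents. Its construct difference did not pass the test (adjusted p = 0.083, edgeR).

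Synaptic transmission and transport took 7 members. Ache, the acetylcholinesterase that ends cholinergic signals at neuromuscular and neuronal synapses, stood at 0.364 CPM in GFP, 25.3 in MyoD, 19.2 in NeuroD2, 2.46 in the chimera, 18.1 in the chimera at MOI 100, 14.5 in WC, 13.7 in WCS and 35.2 in WCS at MOI 100. The unlabelled chimera held 5.55-fold (interval 4.26 to 7.33) less than WCS, the widest WCS over chimera difference in that direction. At MOI 100 WCS still held more than the chimera, and Ache rose in the joint fit (log2 fold change 1.60, adjusted p = 0.03). Cacna2d1, an auxiliary subunit that brings voltage-gated calcium channels to the surface, stood at 6.12 CPM in GFP, 231 in MyoD, 256 in NeuroD2, 52.4 in the chimera, 179.5 in the chimera at MOI 100, 116 in WC, 127 in WCS and 541 in WCS at MOI 100. WCS at MOI 100 was above both parents and above every other library, and the construct and MOI terms both passed the test (log2 fold change 1.41, adjusted p = 0.001 for construct, and log2 fold change 1.86, adjusted p = 0.00079 for MOI). Cacna1d, the pore subunit of an L-type channel, rose with MOI (log2 fold change 1.54, adjusted p = 0.0077; adjusted p = 0.13 for construct), from 2.2 to 6.05 CPM in the chimera and from 3.30 to 11.3 CPM in WCS.

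**Figure D5:**
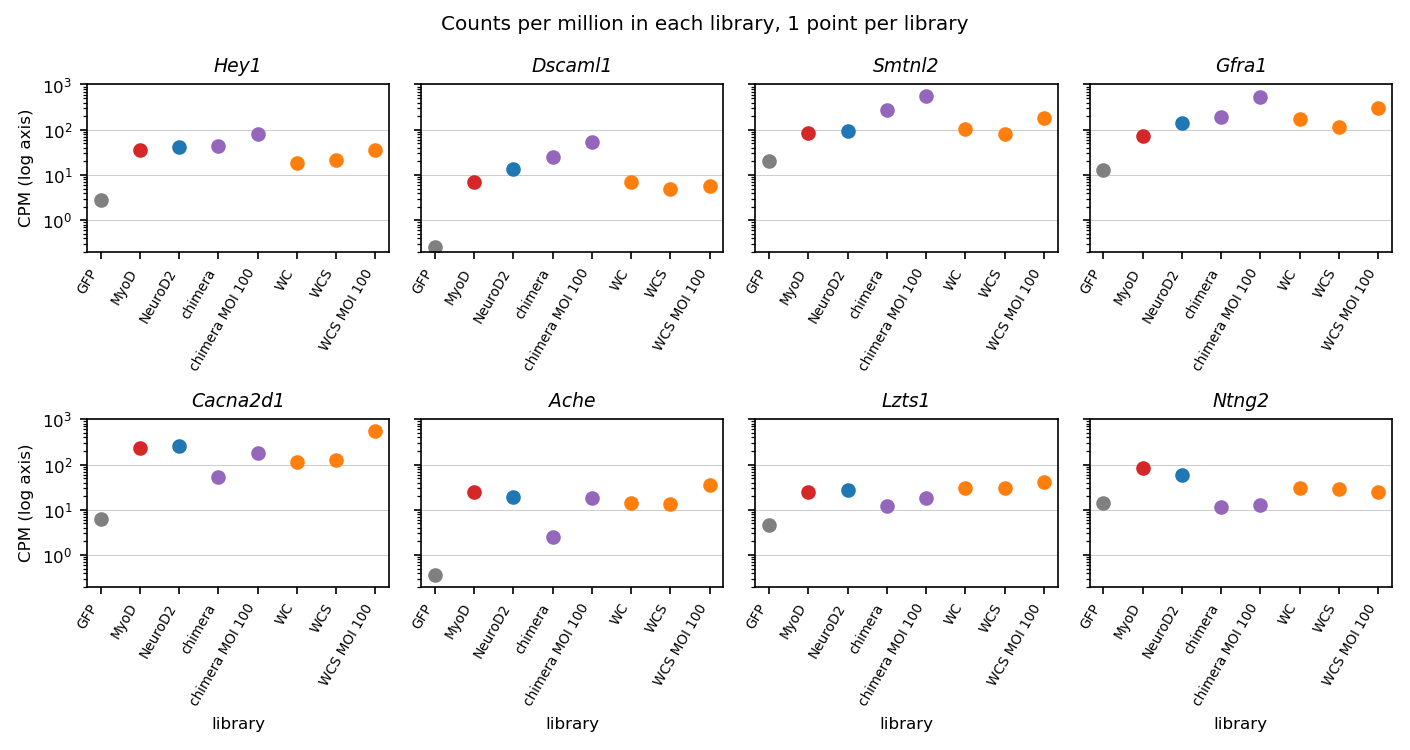
CPM on a log axis for 8 shared genes, with 1 point per library: GFP grey, MyoD red, NeuroD2 blue, the 2 chimera libraries purple and the 3 mutant libraries orange. The top row holds genes that fell in WCS and the bottom row genes that rose in WCS against the chimera at the same MOI label; Ntng2 in the chimera libraries is at 11.7 and 12.7 CPM, against 14.0 in GFP.

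Slc24a3, an exchanger that moves calcium out of cells against sodium, stood at 0.682 CPM in GFP, 37.7 in MyoD, 18.6 in NeuroD2, 6.02 in the chimera, 40.3 in the chimera at MOI 100, 3.15 in WC, 3.33 in WCS and 31.9 in WCS at MOI 100. It divided by the MOI label: the 2 MOI 100 libraries and MyoD were at 31.9 CPM or more, and the 3 unlabelled chimera and mutant libraries at 6.02 CPM or less (log2 fold change 2.91, adjusted p = 0.00079). Slc17a7, the vesicular glutamate transporter VGLUT1 that loads glutamate into synaptic vesicles, stood at 0.296 CPM in GFP, 21.7 in MyoD and 28.4 in NeuroD2. It was at 16.6 and 50.8 CPM in the chimera libraries, and at 23.8, 13.6 and 25.1 CPM in WC, WCS and WCS at MOI 100. A glutamate transporter of neurons was thus high in MyoD as well, where neuronal structure genes as a list were not. Nsg2, a protein of neuronal vesicle trafficking, stood at 1.84 CPM in GFP, 23.3 in MyoD, 14.8 in NeuroD2, 8.1 in the chimera, 30.3 in the chimera at MOI 100, 13.5 in WC, 13.5 in WCS and 13.5 in WCS at MOI 100. The mutants were alike at 13.5 CPM, and the chimera lay below them without the label and above them at MOI 100. Slc3a1, a subunit of an amino acid transporter, rose with MOI (log2 fold change 0.68, adjusted p = 0.046) from 8.48 to 15.2 CPM in the chimera, a call that DESeq2's Wald test and the fit without the filter on low counts did not keep. It was highest in MyoD (21.2 CPM). Its exons overlap those of Prepl on the opposite strand.

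Adhesion and guidance genes split evenly. Dscaml1, an immunoglobulin adhesion molecule that guides neurite spacing, stood at 0.25 CPM in GFP, 6.99 in MyoD, 13.8 in NeuroD2, 24.8 in the chimera, 54.3 in the chimera at MOI 100, 7.04 in WC, 4.98 in WCS and 5.78 in WCS at MOI 100. It was above both parents in the 2 chimera libraries and near or below MyoD in the 3 mutant ones. At MOI 100 it was 9.4-fold (interval 8.01 to 11.1) lower in WCS than in the chimera, and it fell in the joint fit (log2 fold change -2.81, adjusted p = 0.001). Cdh13, a cadherin held in the membrane by a lipid anchor, stood at 1.07 CPM in GFP, 7.67 in MyoD, 6.05 in NeuroD2, 10.1 in the chimera, 21.5 in the chimera at MOI 100, 4.08 in WC, 4.34 in WCS and 6.97 in WCS at MOI 100. Both chimera libraries were likewise its highest, and it fell in WCS (log2 fold change -1.46, adjusted p = 0.0078).

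Reln, the secreted protein that positions migrating neurons, stood at 1.86 CPM in GFP, 35.6 in MyoD, 64.5 in NeuroD2, 6.85 in the chimera, 28 in the chimera at MOI 100, 12.1 in WC, 15.5 in WCS and 48 in WCS at MOI 100. Both parents exceeded the unlabelled chimera and mutant libraries, and Reln rose in WCS (log2 fold change 0.93, adjusted p = 0.019) and with MOI (log2 fold change 1.74, adjusted p = 0.0017). Ntng2, a netrin relative tethered to axons, stood at 14 CPM in GFP, 85.3 in MyoD, 57.5 in NeuroD2, 11.7 in the chimera, 12.7 in the chimera at MOI 100, 30.1 in WC, 29.2 in WCS and 25.4 in WCS at MOI 100. The 2 chimera libraries lay just under the GFP level while the 3 mutant libraries lay between GFP and NeuroD2 (log2 fold change 1.13, adjusted p = 0.0097). Its exons overlap those of 6530402F18Rik on the same strand, and how reads were shared between the 2 is not given in the sources used here.

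Among 6 cytoskeletal genes, 3 fell in WCS and 1 rose, beside the same 14 and 7 of 44. Smtnl2, a relative of the smooth muscle protein smoothelin, stood at 20.6 CPM in GFP, 85.8 in MyoD, 94.3 in NeuroD2, 269 in the chimera, 549.5 in the chimera at MOI 100, 106 in WC, 79.7 in WCS and 183 in WCS at MOI 100. The chimera at MOI 100 held 5.83-fold (interval 5.59 to 6.08) the NeuroD2 level, and Smtnl2 fell in WCS (log2 fold change -1.70, adjusted p = 0.00044). Tppp3, which promotes tubulin assembly, stood at 11.2 CPM in GFP, 74.6 in MyoD, 50.8 in NeuroD2, 90.5 in the chimera, 135 in the chimera at MOI 100, 45.2 in WC, 43.3 in WCS and 43.1 in WCS at MOI 100. Its 3 mutant libraries lay within 43.1 and 45.2 CPM, and the gene fell in WCS (log2 fold change -1.39, adjusted p = 0.0029). Phldb2, which anchors microtubules at the cell cortex and helps cluster acetylcholine receptors, stood at 20.4 CPM in GFP, 83.3 in MyoD, 138 in NeuroD2, 106 in the chimera, 187 in the chimera at MOI 100, 45.3 in WC, 39.6 in WCS and 96.5 in WCS at MOI 100. WC and WCS held the lowest levels after GFP, and Phldb2 fell in WCS (log2 fold change -1.22, adjusted p = 0.0022).

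Lzts1, a leucine-zipper protein of neuronal progenitors and synapses, was the cytoskeletal gene that rose. It stood at 4.57 CPM in GFP, 24.8 in MyoD, 28 in NeuroD2, 12.4 in the chimera, 17.8 in the chimera at MOI 100, 30.6 in WC, 30.9 in WCS and 42.1 in WCS at MOI 100. All 3 mutant libraries exceeded both parents and both chimera libraries, though WC lay within counting error of NeuroD2. The construct difference was 1.28 and 1.22 at the 2 labels (log2 fold change 1.25, adjusted p = 0.0032). Mical2, an enzyme that oxidises actin filaments, ran from 3.11 CPM in GFP to 33.5 CPM in the chimera, and its lower level in WCS missed the threshold (adjusted p = 0.06, edgeR). Myh7b, a slow-type myosin heavy chain, was at 6.16 CPM in MyoD and 9.20 in NeuroD2 but between 2.42 and 3.95 CPM in all 5 chimera and mutant libraries. Its exons overlap those of Trpc4ap on the opposite strand, a gene at up to 307 CPM.

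The remaining genes have other roles. Rbfox1, a splicing regulator of both muscle and brain, stood at 0.296 CPM in GFP, 5.98 in MyoD, 5.04 in NeuroD2, 2.2 in the chimera, 17.9 in the chimera at MOI 100, 2.93 in WC, 2.09 in WCS and 14.7 in WCS at MOI 100. Like Slc24a3 it divided by the MOI label, with the 2 MOI 100 libraries highest of all 8 (log2 fold change 2.84, adjusted p = 0.00096). Fbxo32, the ubiquitin ligase atrogin-1 of muscle wasting, was at 9.55 CPM in MyoD, 10.4 in NeuroD2, 18.7 in the chimera and 33.9 in the chimera at MOI 100. In WC, WCS and WCS at MOI 100 it was at 8.38, 7.37 and 25.8 CPM. Fbxo32 rose with MOI (log2 fold change 1.24, adjusted p = 0.012). Commd3, a regulator of protein sorting and ubiquitination, lies next to Bmi1 on the same strand of chromosome 2, and stood between 14.2 and 24.3 CPM in every library but GFP (3.80). Shisal1, a membrane protein of the Shisa-like family, stood at 6.25 CPM in GFP, 41 in MyoD, 39.5 in NeuroD2, 36.2 in the chimera, 62.8 in the chimera at MOI 100, 23.2 in WC, 22.3 in WCS and 22.1 in WCS at MOI 100. Its 3 mutant libraries lay between GFP and all other libraries, and it fell in WCS (log2 fold change -1.13, adjusted p = 0.017). Airn, the non-coding RNA that silences the paternal Igf2r locus, rose with MOI (log2 fold change 1.57, adjusted p = 0.0062), reaching 17.0 CPM in WCS at MOI 100. Stum ran from 0.386 CPM in GFP to 12.6 CPM in WCS at MOI 100, and Tsga10 from 3.09 CPM in GFP to 21.1 CPM in MyoD. Stum and Tsga10 passed neither test (adjusted p = 0.065 and 0.13 for construct, 0.079 and 0.088 for MOI, edgeR).

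Lists of related genes place the members. The 14 lists held 6 of the 44 genes. For comparison, 3.29% of all 12827 genes were 4-fold above GFP in MyoD, 5.91% in NeuroD2, and 72 genes in both. Among 25 Notch and lateral inhibition genes with 5 CPM in some library, 2 were 4-fold above GFP in MyoD and 10 in NeuroD2. Hey1 and Hes5 were in both, but Hes5, another Notch target, was at 6.16 CPM in MyoD and 47.8 in NeuroD2 and so too far apart. Dll1, a Notch ligand, came close to the rule at 31.4 CPM in GFP, 120 in MyoD and 135.5 in NeuroD2. Among 20 genes of cell cycle exit 4 were 4-fold above GFP in MyoD and 4 in NeuroD2, with Rb1 in both. Among 31 ion channels 7 and 16 were, with Cacna1d, Cacna2d1 and Cacna1h in both. Cacna1h, a T-type calcium channel, was at 10.8 CPM in GFP, 132 in MyoD and 63.0 in NeuroD2. Among 16 acetylcholine receptor and synapse genes 7 and 6 were, with Ache alone in both. Skeletal muscle structure genes numbered 39, and 37 of them were 4-fold above GFP in MyoD and 1 in NeuroD2, with Myh3, an embryonic myosin, in both (2872 CPM in MyoD and 6.52 in NeuroD2). Of 38 neuronal structure genes 0 were 4-fold above GFP in MyoD and 26 in NeuroD2. Of 45 axon guidance and adhesion genes 2 and 17 were, with Reln alone in both. No gene of the bHLH list (21 tested), of the Mef2, Pbx and Meis list (21) or of the pluripotency (13), fibroblast (15), endoderm and mesoderm (5), glia (7) and interferon (11) lists was 4-fold above GFP in both. With 72 of 12827 genes in both, a count of 0 in lists this small says little about them. In MyoD and NeuroD2 singly the counts were 2 and 10, 4 and 3, 1 and 0, 3 and 1, 1 and 1, 0 and 3, and 2 and 0 in the same order.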

How the data were processed

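RNA of 8 P19 cultures, selected with oligo-dT and sequenced on an Illumina HiSeq per the labels' protocols, was deposited by the authors as 1 table of raw counts per gene for 8 libraries. CASAVA 1.8.2, TopHat2 2.0.8 and mm9 are named in the submitters' processing notes. For the counter, annotation and strand handling the entry is: not given in the sources used here. Symbols were found for 32850 of 37558 gene identifiers (87.5%). CPM was computed from column totals, without a composition factor, and log2 values use a pseudocount of 0.5 CPM. A gene was tested when 1 library held 5 CPM. The members and lists were chosen with earlier results of these data known. A fit of construct and MOI label on the 4 chimera and WCS libraries was made in edgeR 4.0.16 (R 4.3.3) with TMM factors, the quasi-likelihood test and Benjamini-Hochberg adjustment; DESeq2 1.42.0 was an alternative. Each group was 1 library, so no comparison has replicate error, and the other comparisons are ratios of 2 libraries with counting intervals. Every member is named except 1, which is not reported here; those given in all 8 libraries are the 8 with the highest median level in the 5 chimera and mutant libraries, the 5 highest and 5 lowest by construct difference, the 4 highest and 4 lowest by MOI difference, those on the Notch, cell cycle exit and bHLH lists, and up to 6 called genes per direction with the smallest adjusted p. Nsg2, Shisal1 and Slc17a7 were added after their values were seen. Tables were made in Python 3.11.15 with pandas 2.3.3 and scipy 1.17.1. RefSeq promoter windows are of GRCm38.p6, not of the authors' mm9, and were matched by symbol. Alternatives were the scaling, pseudocount, fold and distance limits, filter, test, promoter window and each library left out.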

Additional observations from a re-analysis of the deposited data

Results flagged for a closer look

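Nsg2 differed in the sign of the WCS minus chimera difference between the MOI labels: 0.71 without the label and -1.14 at MOI 100 on the log2 scale. Rb1 had -0.31 without the label and 0.13 at MOI 100, and Rgs8 -0.14 and 0.78. Mical2 differed in the sign of the MOI 100 minus unlabelled difference, which was -0.20 in the chimera and 0.81 in WCS. Each group is 1 library, and whether these differences differ from each other was not tested.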

How the results depend on the processing

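The number of shared genes depended on the rule: 23 with a pseudocount of 2 CPM, 12 at 8-fold, 24 when MyoD and NeuroD2 were held under 0.5 apart and 72 with no limit on their distance, against 44. TMM scaling gave 37 genes, of which 35 were among the 44. It lost Arl4a, Cdh13, Ntng2, Rb1, Rbfox1, Slc24a3, Spred3, Tnik and Tppp3. DESeq2 size factors gave 33 genes, of which 32 were among the 44, and lost the same genes together with Bmi1, Hivep2 and Phldb2. With a pseudocount of 2 CPM, 5 members were 2-fold lower in WC than in the chimera and 4 were 2-fold higher in WCS. In the 4-library fit, counts with the other term dropped were 0 for construct, higher and lower, and 0 for the MOI label. Leaving out 1 library each with the other term dropped, chosen after seeing the data, gave 0 to 0 higher and 0 to 1 lower for construct and 0 to 0 higher for MOI. In those fits the construct difference spanned 0 for Gfra1 (-1.59 to 0.09), Gm16277 (-1.49 to 0.13), Zbtb18 (-1.03 to 0.09), Tnik (-1.45 to 0.47), Rap1gap2 (-0.42 to 1.62) and Reln (-0.11 to 2.15), and the MOI difference for Cdh13 (-0.14 to 1.64) and Smtnl2 (-0.02 to 2.13). With 1 term dropped, the other factor enters the spread or, with 3 libraries, the difference itself. DESeq2 called 7 higher and 14 lower for construct, 12 of these 14 shared, and 28 for MOI. With WC added as a mutant, 9 were higher (6 shared), 15 lower (12 shared) and 33 higher for MOI (28 shared). In the 150 bases before the start CAGCTG was present for 6 genes (18.8%, against 9.15% of all tested). CAGATG was present for 3 (9.38% against 6.51%) and CAGGTG for 4 (12.5% against 10.3%). Per window the shares were 14.3%, 10.2% and 8.16%, against 7.57%, 5.37% and 8.47% for all tested genes. No paired analysis was possible because each group is 1 library and the labels give no replicate numbers; the MOI label is a term of the fit. Low counts in GFP limit ratios to it: Dscaml1 in the chimera at MOI 100 was 217-fold above GFP with an interval of 121 to 436. The spread between cultures is unknown.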
